A study of Homo sapiens with 6 samples.

Results

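The 71 protein-coding genes described here are the clustered histone genes, taken as all genes whose GENCODE release 29 symbol begins with HIST1 to HIST4 followed by H1, H2A, H2B, H3 or H4. They are 71 of the 58174 genes in the deposited table, with 6 genes of the linker histone H1, 17 of H2A, 18 of H2B, 15 of H3 and 15 of H4. By cluster, 55 belong to HIST1 on chromosome 6, 12 to HIST2 and 3 to HIST3 on chromosome 1, and 1 to HIST4 on chromosome 12. The samples are SiHa cells, an established human line from a cervical squamous cell carcinoma. The OV-BRCA1 group (3 samples) was transfected by lipofection with GV230-BRCA1, a plasmid that carries BRCA1, and the NC group (3 samples) with empty GV230, and cells were collected after 48 h. The study calls the 3 samples of a group biological replicates, the transfection was transient, and both groups come from this one line. RNA was taken with mRNA capture beads, and the values are FPKM, fragments scaled to the length of the transcript and to the number of mapped fragments. In bulk samples of this kind, fewer cells of a type and less RNA per cell cannot be told apart.

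Histones H2A, H2B, H3 and H4 form the protein core around which DNA is wound in the nucleosome, and H1 binds the DNA where it enters and leaves. The clustered genes are the replication-dependent ones. Their mRNA is made mainly in S phase, when new DNA has to be packed, and it is the main class of animal mRNA that ends in a conserved stem-loop and not in a poly(A) tail. The stem-loop is bound by SLBP, and U7 snRNP directs the cut just behind it. Several of these genes are also known to give longer, polyadenylated and sometimes spliced mRNA.

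The stem-loop was searched on the transcript strand as the 16 bases of the histone stem-loop, with fixed guanines at the start, fixed cytosines at the end and fixed thymines at the loop, where at least 5 of the 6 stem positions had to pair. It was present in at least 1 GENCODE transcript of 31 of the 71 genes when the whole transcript was searched. In the last 100 bases alone, it was present in 11 of the 100 transcripts of these genes and in 23 of 83047 other protein-coding transcripts (0.0277%). Of the 100 transcripts of the 71 genes, 36 are annotated as a coding region only, so that no 3′ end was searched in them. The letters fell into 5 forms, of which H4 genes shared none with the other families, and are shown because the gene models that carry them differ in how far they run past this point. Capitals mark the stem-loop, and the GRCh38 coordinates are those of the capitals.
HIST1H2AC (chr6:26124669-26124684, plus strand): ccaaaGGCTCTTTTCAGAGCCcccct
HIST1H2BF (chr6:26199968-26199983, plus strand): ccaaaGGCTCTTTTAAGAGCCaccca
HIST1H2AG (chr6:27133515-27133530, plus strand): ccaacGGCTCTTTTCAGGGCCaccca
HIST1H4H (chr6:26285131-26285146, minus strand): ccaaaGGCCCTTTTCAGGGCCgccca
HIST2H4A (chr1:149833032-149833047, plus strand): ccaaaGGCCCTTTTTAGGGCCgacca
The form of HIST1H2AC was found in 17 genes, 6 of H2A, 8 of H2B and 3 of H3. That of HIST1H2BF was found in 5 genes of H2B and H3, and that of HIST1H2AG in this gene alone. The 8 H4 genes with a stem-loop carried the remaining forms, 5 genes the form of HIST1H4H and 3 genes, HIST2H4A, HIST2H4B and HIST1H4I, the form of HIST2H4A.

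BRCA1, the gene carried by the plasmid, was checked first. Its FPKM was 35.7, 40.8 and 34.9 in the OV-BRCA1 samples and 20.1, 14.9 and 21.7 in the NC samples, with a log2 fold change of 0.95 (standard error, SE, 0.14, limma adjusted p = 0.00373). The deposited files hold no counts, and depth was estimated at 14.31 to 16.64 M fragments per OV-BRCA1 sample and 16.26 to 19.91 M per NC sample. Mitochondrial transcripts held 14.84% to 17.25% of all FPKM in the OV-BRCA1 samples and 21% to 23.2% in the NC samples. Of the 10 epithelial markers, the keratins KRT8, KRT17 and KRT18 were abundant, whereas KRT5 and TP63 stayed below 0.5 FPKM in all 6 samples. KRT14, KRT19 and CDH1 stayed below 1 FPKM. PTPRC and VWF, which define leukocytes and endothelial cells, were at 0, although the summed leukocyte list was 6.78 to 9.10 FPKM in the OV-BRCA1 group against 18.0 to 20.6 in the NC group, nearly all of it CD14. Among the epithelial markers 4 of 6 tested genes rose and 1 fell, where 16.4% of all genes tested rose and 18.9% fell. Log2 fold changes were 1.12 for EPCAM, 0.84 for KRT6A, 0.39 for KRT18, 0.20 for KRT8 and -0.48 for KRT17. KRT6A reached the filter through the OV-BRCA1 samples alone. The summed fibroblast list was 3.18 to 3.90 FPKM in the OV-BRCA1 samples and 6.02 to 6.63 in the NC samples, led by COL1A1 (log2 fold change -0.79). The part of these markers in the histone result was not tested.

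Clustered histone mRNA was higher after BRCA1 transfection. Their summed FPKM was 4787, 4635 and 4575 in the OV-BRCA1 samples and 2481, 2439 and 2462 in the NC samples, a ratio of 1.90, and the lowest OV-BRCA1 sum lay far above the highest NC sum. They held 0.991% to 1.046% of all FPKM in the OV-BRCA1 group against 0.498% to 0.516% in the NC group. Of the 71 genes, 57 had at least 0.5 FPKM in at least 3 samples and were tested. Differences are given as the log2 fold change of log2(FPKM + 1), a scale that understates the change of genes with few FPKM. By limma with Benjamini-Hochberg adjustment over all 16321 genes tested, 48 of the 57 rose (adjusted p below 0.05), where 16.4% of all genes tested rose. None fell, where 18.9% of all genes tested fell. Of the 57 genes, 54 were higher and 3 lower by any amount, and no lower gene had an unadjusted p below 0.05. The criterion for upregulated DEGs, which adds a log2 fold change above 1, was met by 22 genes, against 2.89% of all genes tested. This count depends on the pseudocount and was 34 with 0.1 in place of 1. In 49 genes the lowest OV-BRCA1 value exceeded the highest NC value, which held for 23.4% of all genes tested. The median log2 fold change was 0.94 over the 57 genes and -0.04 over all genes tested. The filter was reached through the OV-BRCA1 samples alone by HIST1H2AH and HIST2H2AB. A further 5 genes, HIST1H1T, HIST1H2AD, HIST1H2BE, HIST1H2BM and HIST1H4B, reached it with only 1 or 2 NC samples at 0.5 FPKM. Without these 7 genes, 42 of 50 rose and 20 were upregulated DEGs.

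**Figure D1:**
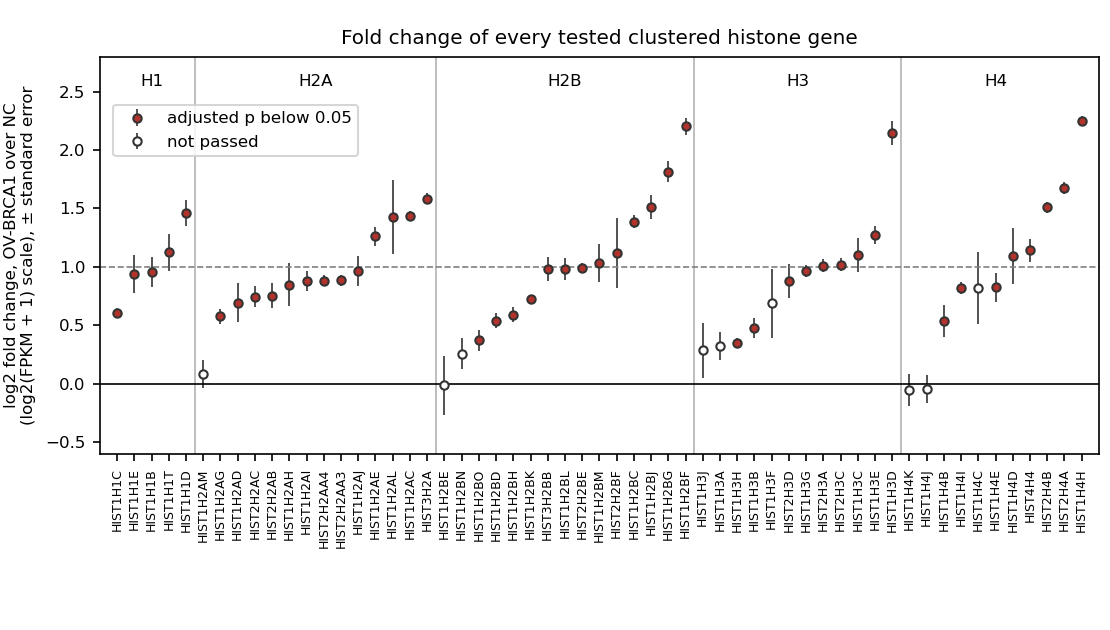
Log2 fold change (OV-BRCA1 over NC, on the log2(FPKM + 1) scale) of each of the 57 tested genes, in order within each histone family. Points are the estimates and bars the standard errors from limma, filled points have an adjusted p below 0.05, and the dashed line is the fold change of the DEG criterion. The 48 filled points all lie above 0, and the highest are HIST1H4H, HIST1H2BF and HIST1H3D.

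The other 14 genes were not tested. HIST1H2AA, HIST1H2AK, HIST1H2BA and HIST3H3 were at 0 in all 6 samples. Among these 4, HIST1H2AA, HIST1H2BA and HIST3H3 are known as testis genes. HIST1H1A, HIST1H2AB, HIST1H2BB, HIST1H2BI, HIST1H3I, HIST2H3PS2, HIST1H4A, HIST1H4F, HIST1H4G and HIST1H4L had some FPKM in at least 1 sample but did not reach the filter. The detected genes were very unequal in level. HIST1H2BK, HIST1H1C and HIST2H2AA3 together held 51.9% of the summed FPKM of all clustered histone genes in the OV-BRCA1 group against 60.8% in the NC group, and the 10 most abundant genes held 81.1% and 83.2%. The rise was not limited to one range of level. Of the 8 tested genes with a mean of at least 100 FPKM, 8 rose, as did 10 of 10 genes between 20 and 100 FPKM. Between 5 and 20 FPKM 15 of 19 rose, and between 1 and 5 FPKM 11 of 16. Over all genes tested, at any level, 16.4% rose. The range of 1 to 5 FPKM includes HIST1H1T, HIST1H2BE and HIST1H2BM, which needed the OV-BRCA1 samples to reach the filter.

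By family, the summed FPKM of every histone type was higher in the OV-BRCA1 group, without overlap between the groups. The ratio of the sums was largest for H4 (557 ± 1.49 against 179 ± 0.622, SD, n = 3 each), at 3.11. It was 2.13 for H2A (1097 ± 34.3 against 514 ± 7.78), 1.96 for H3 (231 ± 8.44 against 118 ± 4.41), 1.77 for H2B (1828 ± 39.7 against 1031 ± 7.96) and 1.54 for H1 (952 ± 35.4 against 619 ± 11.6). The sums are led by the most abundant genes of each family. The medians over single genes lay closer together, at 0.96 for H1, 0.88 for H2A, 0.98 for H2B, 0.92 for H3 and 0.82 for H4 on the log2 scale. Without the 7 genes that needed the OV-BRCA1 samples to reach the filter, they were 0.95, 0.88, 0.98, 0.92 and 0.96 in the same order, so that H4, which lost HIST1H4B, was no longer the lowest. No test between families was made.

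**Figure D2:**
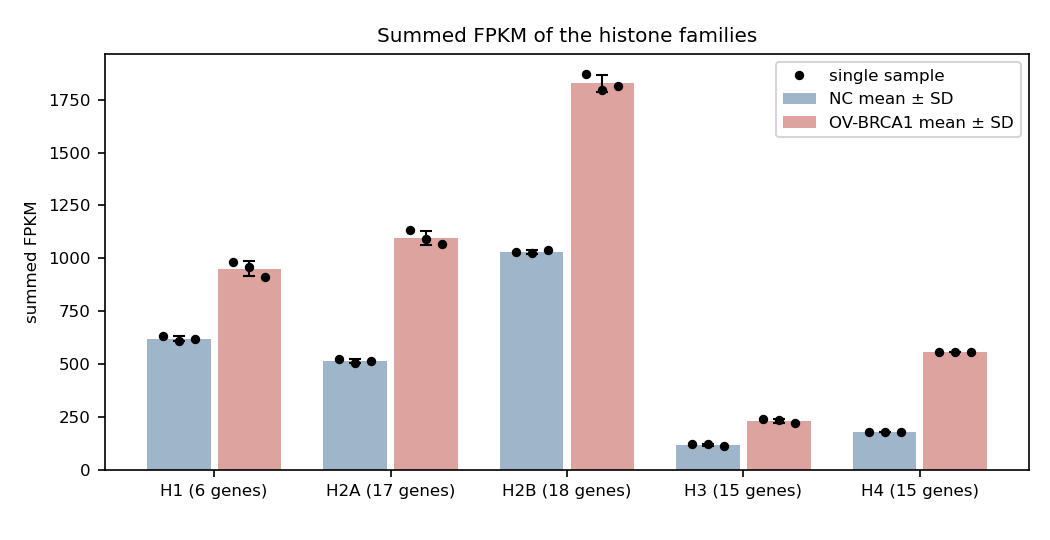
Summed FPKM of the genes of each histone family. Bars are group means with SD (n = 3), black points are single samples, and the y axis starts at 0. In all 5 families the OV-BRCA1 samples lie above the NC samples, from 1.54 times for H1 to 3.11 times for H4.

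All 5 tested H1 genes rose, and 2 of them were upregulated DEGs, against 16.4% and 2.89% of all genes tested. Without HIST1H1T, which needed the OV-BRCA1 samples to reach the filter, 4 of 4 rose and 1 was an upregulated DEG. HIST1H1C (ENSG00000187837), which encodes the linker histone H1.2, had 966, 936 and 894 FPKM in the OV-BRCA1 samples and 624, 602 and 611 in the NC samples. It was the second most abundant of the 71 genes and made up nearly the whole H1 sum, with a log2 fold change of 0.60 (SE 0.04, limma adjusted p = 2.01e-04). HIST1H1D, the gene of H1.3, had 9.30, 11.6 and 10.6 FPKM against 3.65, 2.93 and 2.91. The groups did not overlap, and its log2 fold change of 1.46 (adjusted p = 2.79e-04) was the largest of the family on the log2(FPKM + 1) scale, while the ratio of mean FPKM was 3.31 and lay below those of HIST1H1T (5.43) and HIST1H1B (3.61). HIST1H1E, the gene of H1.4, rose from 2.39 ± 0.583 to 5.46 ± 0.839 FPKM (SD, n = 3). HIST1H1T, the gene of the testis linker histone H1t, had 2.16, 1.73 and 1.85 FPKM against 0.195, 0.183 and 0.681. Its log2 fold change was 1.12 (adjusted p = 0.00305 from limma), on an estimated 2.3 fragments in the lowest sample, so this value has a wide counting error, and only 1 NC sample reached the filter. HIST1H1B, the gene of H1.5, rose by 0.96.

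Of 14 tested H2A genes, 13 rose and 4 were upregulated DEGs, against 16.4% and 2.89% of all genes tested. Without HIST1H2AD, HIST1H2AH and HIST2H2AB, which needed the OV-BRCA1 samples to reach the filter, 10 of 11 rose and 4 were upregulated DEGs. HIST2H2AA3 and HIST2H2AA4 encode the same protein and were the most abundant. HIST2H2AA3 had 299, 284 and 276 FPKM in the OV-BRCA1 samples and 159, 151 and 153 in the NC samples. HIST2H2AA4 had 289, 276 and 269 against 155, 148 and 149, with log2 fold changes of 0.88 for both. The HIST2H2AA3 transcript shares 100% of its 100-base stretches with HIST2H2AA4, so the split of reads between these copies is uncertain, and only their sum, 564 ± 21.9 against 305 ± 8.59 FPKM (SD, n = 3), stands on its own.

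HIST1H2AC (ENSG00000180573) had 279.9, 268 and 271 FPKM in the OV-BRCA1 samples and 99.5, 99.3 and 102 in the NC samples. The groups stood far apart, and the log2 fold change was 1.44 (SE 0.04, limma adjusted p = 5.26e-06). HIST3H2A, from the small HIST3 cluster, had 134, 135 and 131 FPKM against 45.0, 41.4 and 45.0. Here too the groups stood far apart, with a log2 fold change of 1.58 (limma adjusted p = 8.53e-06), the largest among H2A genes on this scale. The HIST3H2A ratio of mean FPKM, 3.04, lay below those of the less abundant HIST1H2AH (5.62), HIST1H2AL (3.71), HIST2H2AB (3.25) and HIST1H2AD (3.11). NC means of HIST1H2AH, HIST2H2AB and HIST1H2AD were below 0.5 FPKM, so their ratios have a wide counting error. HIST1H2AE rose from 21.3 ± 1.10 to 52.4 ± 4.83 FPKM (log2 fold change 1.26), and HIST1H2AL had 6.11 ± 2.31 FPKM against 1.65 ± 0.816 (log2 fold change 1.43, SE 0.32). HIST1H2AL overlaps HIST1H2BN on the same strand. The H2A gene that did not pass was HIST1H2AM, with 11.4, 13.1 and 14.7 FPKM against 10.7, 13.4 and 12.7. These groups overlapped, and the log2 fold change was 0.08 (limma adjusted p = 0.627). HIST1H2AM shares 84.0% of its 100-base stretches with HIST1H3J, because the model HIST1H3J-202 overlaps it on the same strand. That model, which has no coding region, had at most 0.0215 FPKM in any sample.

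Of 15 tested H2B genes, 13 rose and 6 were upregulated DEGs, against 16.4% and 2.89% of all genes tested. Without HIST1H2BE and HIST1H2BM, which needed the OV-BRCA1 samples to reach the filter, 12 of 13 rose and 5 were upregulated DEGs. HIST1H2BK (ENSG00000197903) was the most abundant clustered histone gene, with 1234, 1181 and 1200.3 FPKM in the OV-BRCA1 samples and 732, 724 and 732 in the NC samples. Its groups stood apart with little spread, and its log2 fold change was 0.72 (SE 0.04, limma adjusted p = 4.61e-05). HIST1H2BD had 171, 151 and 167 FPKM against 108, 111 and 116, a log2 fold change of 0.54. It was thus among the genes with a smaller change, and it overlaps other annotated genes on both strands.

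HIST1H2BC, which starts next to HIST1H2AC on the opposite strand, had 131, 127 and 139 FPKM in the OV-BRCA1 samples and 49.1, 52.4 and 48.7 in the NC samples (log2 fold change 1.39). HIST1H2BJ had 137, 129.9 and 106 FPKM against 43.9, 41.4 and 42.6 (log2 fold change 1.51). In both genes the lowest OV-BRCA1 sample lay far above the highest NC sample. HIST1H2BF (ENSG00000277224) had 17.8, 17.1 and 19.2 FPKM against 3.13 ± 0.187 (SD, n = 3) in the NC group, and its log2 fold change of 2.20 (SE 0.08, limma adjusted p = 1.09e-05) was the largest in the family. HIST1H2BG rose from 6.66 ± 0.787 to 25.9 ± 1.40 FPKM (log2 fold change 1.82), and HIST1H2BM from 0.671 ± 0.311 to 2.39 ± 0.333 (1.03). Both stayed far below the level of HIST1H2BK.

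HIST2H2BF had 6.24, 14.4 and 11.6 FPKM in the OV-BRCA1 samples and 3.06, 4.88 and 4.74 in the NC samples. The spread within the OV-BRCA1 group was wide, and its log2 fold change of 1.12 (SE 0.30, limma adjusted p = 0.0298) was lost in 5 of the 6 fits that left out 1 sample, with adjusted p between 0.0554 and 0.0882 in those fits. It was also lost without a filter on low values (0.0789) and with only transcripts that run past the stem-loop (0.156). HIST2H2BF overlaps FCGR1A on the opposite strand. The H2B genes that did not pass were HIST1H2BE (1.22 ± 0.155 against 1.33 ± 0.736 FPKM, log2 fold change -0.02) and HIST1H2BN (5.86 ± 1.06 against 4.70 ± 0.419, 0.26), and their groups overlapped.

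Of 12 tested H3 genes, 9 rose and 5 were upregulated DEGs, against 16.4% and 2.89% of all genes tested. The 10 HIST1H3 genes encode one protein of 136 residues, known as H3.1, and their summed FPKM was 185 ± 8.12 in the OV-BRCA1 group against 96.4 ± 3.95 in the NC group. HIST1H3H was the most abundant, with 55.9, 54.8 and 54.9 FPKM against 43.1, 43.9 and 42.8. Although the groups stood clear of each other, its log2 fold change was only 0.35 (SE 0.04, limma adjusted p = 0.00171). HIST1H3D had 51.4, 51.8 and 43.7 FPKM against 11.2, 10.6 and 9.06, so that it lay far below HIST1H3H in the NC samples and close to it in the OV-BRCA1 samples. The HIST1H3D log2 fold change was 2.14 (SE 0.10, limma adjusted p = 4.21e-05), and another annotated gene overlaps HIST1H3D on the same strand. HIST1H3G rose by 0.97 to 27.5 ± 0.797 FPKM, HIST1H3E by 1.27 to 11.7 ± 0.797 and HIST1H3C by 1.10 to 13.3 ± 2.57.

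HIST2H3A and HIST2H3C, which with HIST2H3D encode H3.2, share 100% of the 100-base stretches of their transcripts and cannot be separated by such reads. HIST2H3A had 22.2, 22.1 and 22.0 FPKM against 11.0, 10.3 and 10.1, and HIST2H3C nearly the same values, with log2 fold changes of 1.01 and 1.02. Summed with HIST2H3D, the H3.2 genes had 46.8 ± 0.341 FPKM against 21.9 ± 0.581, a ratio of 2.14. HIST1H3A, HIST1H3F and HIST1H3J did not pass, with log2 fold changes of 0.32, 0.69 and 0.28. HIST1H3A had 2.79, 3.96 and 2.91 FPKM against 2.28, 2.36 and 2.40, without overlap, whereas the groups of HIST1H3F and HIST1H3J overlapped.

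Of 11 tested H4 genes, 8 rose and 5 were upregulated DEGs, against 16.4% and 2.89% of all genes tested. Without HIST1H4B, which needed the OV-BRCA1 samples to reach the filter, 7 of 10 rose and 5 were upregulated DEGs. Histone H4 is encoded by many genes of different sequence with one product, and 14 of the 15 H4 genes code for the same 103 residues, HIST1H4G being the exception. HIST1H4H (ENSG00000158406) had 225, 232 and 228 FPKM in the OV-BRCA1 samples and 46.9, 49.0 and 45.9 in the NC samples. Its log2 fold change of 2.25 (SE 0.04, limma adjusted p = 2.47e-06) was the largest of all 57 genes on this scale, and its ratio of mean FPKM was 4.84, beside 5.75 for HIST1H2BF. HIST2H4A had 149.7, 149.8 and 163 FPKM against 47.8, 47.8 and 46.8 (log2 fold change 1.68), and HIST2H4B had 82.2, 80.0 and 79.5 against 26.7, 28.5 and 27.8 (1.51). HIST2H4A and HIST2H4B are near-identical copies, so that the split of reads between them is uncertain. HIST1H4H and this pair thus held most of the H4 sum in both groups.

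Among the less abundant H4 genes, HIST4H4 had 11.2, 8.66 and 9.79 FPKM against 4.07, 3.85 and 3.83 (log2 fold change 1.14), but with only single-exon transcripts of at most 1000 bases it did not pass (0.70, limma adjusted p = 0.0946). HIST1H4D had 5.39, 5.35 and 3.79 FPKM against 2.40, 0.927 and 2.05 (1.09). In both the groups did not overlap. HIST1H4J, with 7.84, 6.35 and 5.58 FPKM against 6.83, 6.47 and 7.02, and HIST1H4K, with 10.9, 9.31 and 7.79 against 10.9, 8.73 and 9.45, had log2 fold changes of -0.04 and -0.06 (adjusted p = 0.796 and 0.773 from limma). Their groups overlapped, and the HIST1H4K transcript shares 100% of its 100-base stretches with HIST1H4J. The same protein was therefore encoded by genes whose log2 fold changes ran from -0.06 to 2.25. HIST1H4C, with 3.47, 1.11 and 3.42 FPKM against 0.683, 0.993 and 1.26, also did not pass (log2 fold change 0.82, adjusted p = 0.0848).

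**Figure D3:**
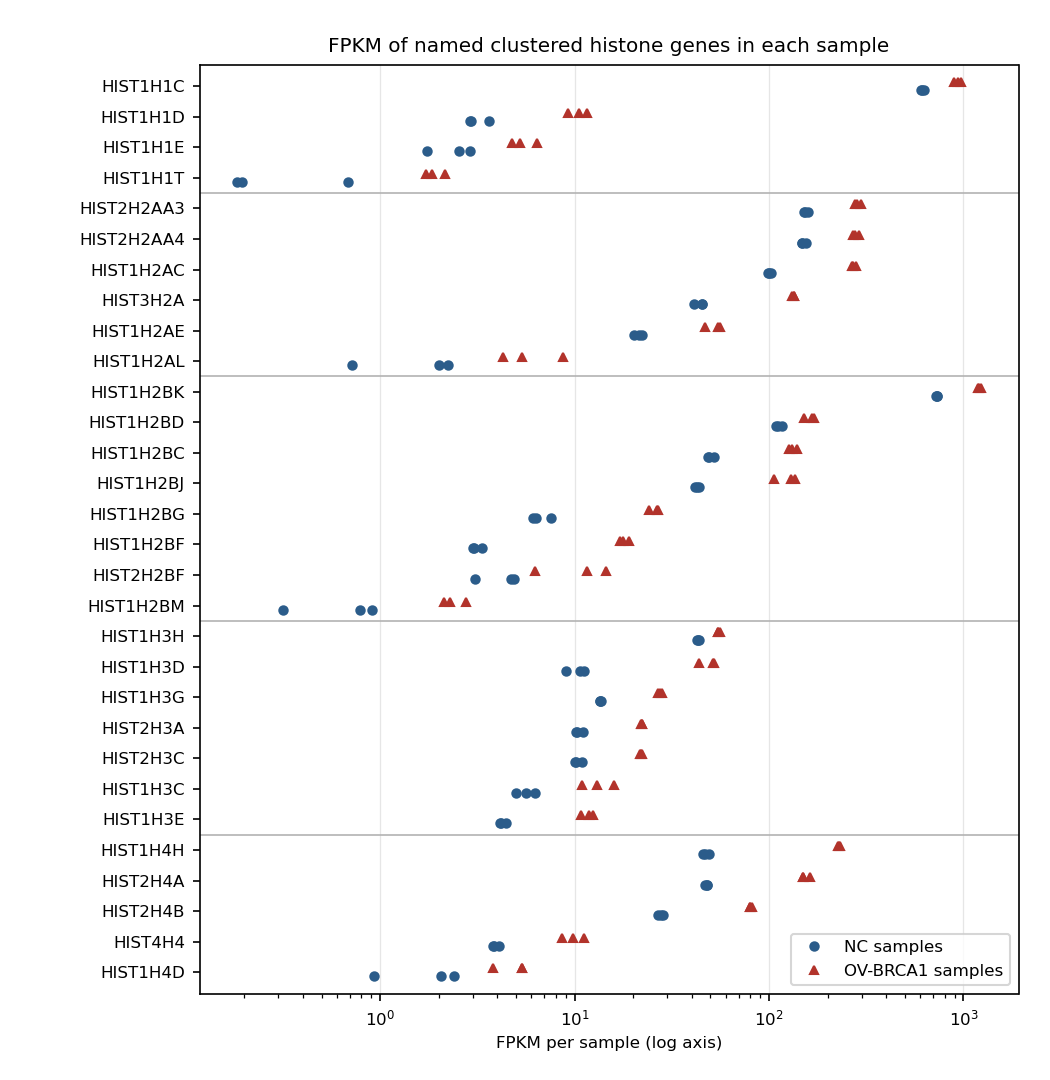
FPKM in each sample of the 22 upregulated DEGs and the 3 most abundant genes of each family (30 genes in all), on a log axis, with families separated by grey lines. Red triangles are the 3 OV-BRCA1 samples and blue circles the 3 NC samples. Genes that did not pass the test are not shown, and HIST2H2BF has the widest spread among its OV-BRCA1 samples, from 6.24 to 14.4 FPKM.

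By cluster, 34 of 43 tested HIST1 genes rose (15 upregulated DEGs), as did 11 of 11 tested HIST2 genes (5 upregulated DEGs), both tested HIST3 genes and HIST4H4. Of all genes tested, 16.4% rose and 2.89% were upregulated DEGs. The calls of HIST2H2BF and HIST4H4 were lost in alternatives, as given above. Without the 7 genes that needed the OV-BRCA1 samples to reach the filter, 29 of 37 HIST1 genes (13 upregulated DEGs) and 10 of 10 HIST2 genes (5 upregulated DEGs) rose. The median log2 fold change was 0.85 in HIST1 and 0.99 in HIST2. HIST1 is split on chromosome 6 by gaps of more than 500000 bases into 3 stretches. In the first stretch (chr6:25726132-26285638), 21 of 25 tested genes rose, 12 were upregulated DEGs, and the median was 0.97. Without the genes that needed the OV-BRCA1 samples, this was 18 of 21, 11 upregulated DEGs and a median of 1.09. In the second (chr6:27125897-27147515), all 5 tested genes rose, with a median of 0.82 (4 of 4 and 0.77 without HIST1H2AH). In the third (chr6:27807444-27893843), 8 of 13 tested genes rose, 2 were upregulated DEGs, and the median was 0.37. Without HIST1H2BM, which needed the OV-BRCA1 samples, this was 7 of 12, 1 upregulated DEG and a median of 0.36. The summed FPKM of the third stretch was 153 ± 4.34 against 111 ± 1.33, a ratio of 1.37, beside 1.95 for the first and 1.72 for the second. HIST1H4J, HIST1H4K, HIST1H2AM, HIST1H2BN and HIST1H3J, 5 of the 9 tested genes that did not pass, lie in the third stretch. Of these, HIST1H4J and HIST1H4K share most of their sequence with another member. HIST1H2AM does so through an overlap with a model of HIST1H3J. HIST1H2AI and HIST1H2AJ, in the same stretch, also share most of theirs, and both rose. These are descriptions, and the stretches were not tested against each other.

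**Figure D4:**
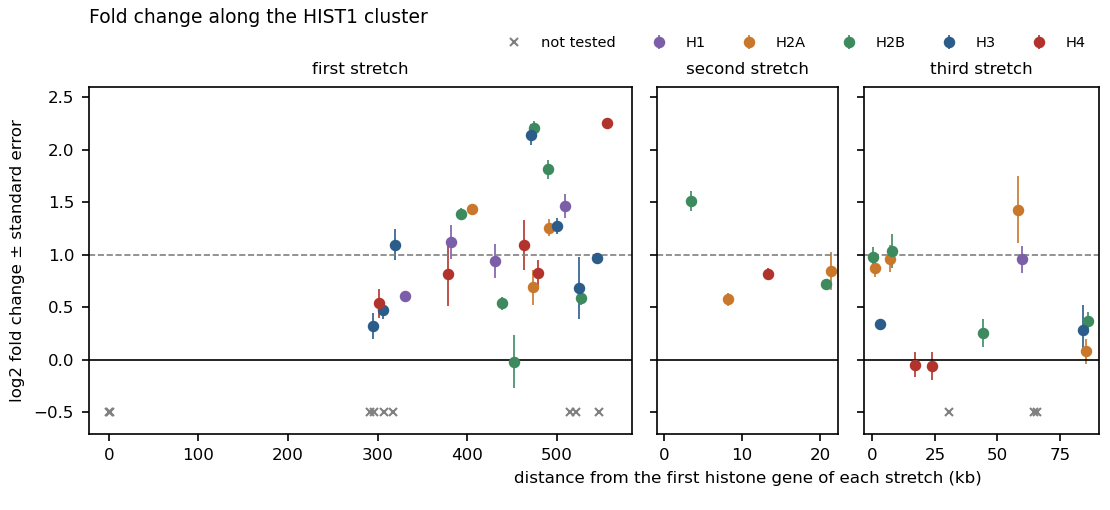
Log2 fold change with standard error of the HIST1 genes against their distance in kb from the first histone gene of each of the 3 stretches, coloured by family. Crosses mark genes that were not tested and carry no value. The points of the first stretch reach 2.25, and in the third stretch 5 of 13 tested genes lie between -0.06 and 0.28 and did not pass.

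Many H2A and H2B genes lie head to head, so that a pair starts from one shared stretch of DNA. With starts at most 1000 bases apart, 11 pairs of H2A with H2B were found. In 9 of the 10 pairs with both genes tested, both genes rose, where 16.4% of all single genes tested rose. Leaving out the pairs with a gene that needed the OV-BRCA1 samples to reach the filter, both genes rose in 6 of 7, the exception being HIST1H2AM with HIST1H2BO. The 2 genes of a pair could differ widely in level. HIST1H2BK had 730 FPKM in the NC group and its partner HIST1H2AH 0.211. They could also differ in log2 fold change, with 1.51 for HIST1H2BJ and 0.58 for HIST1H2AG. HIST1H2BC and HIST1H2AC, with starts 219 bases apart, had log2 fold changes of 1.39 and 1.44.

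RefSeq promoters (GRCh38.p14, 250 bases before to 50 after the start) were matched for 61 of the 71 genes, and searched on both strands for the letters TATAAA, which bind the TATA-binding protein, for CCAAT, bound by NF-Y, and for ATTTGCAT, the octamer bound by POU2F1. TATAAA was in 65.6% of the 61 promoters and 11.53% of 35116 RefSeq promoters, CCAAT in 83.6% and 34.61%, and ATTTGCAT in 42.6% and 1.77%. The octamer was in 11 of 14 H2A and 14 of 18 H2B promoters, and in no H1 or H4 promoter, and CCAAT was in 3 of 13 H4 promoters but in every promoter of the other families. The one H3 gene listed with an octamer, HIST1H3D, has the same RefSeq interval as HIST1H2AD, 2043 bases from the GENCODE start of HIST1H3D. This interval is counted for both genes, also for TATAAA and CCAAT. Whether HIST1H3D mRNA starts there was not tested. Both stretches are set by RefSeq starts, and each overlaps the first bases of a GENCODE transcript that starts further upstream, in HIST1H2AC and in HIST1H4H. The first lies between the RefSeq starts of HIST1H2BC and HIST1H2AC (chr6:26123927-26124171, plus strand) and is the one from which both of these upregulated DEGs start. The second is the 250 bases before the RefSeq start of HIST1H4H (chr6:26285535-26285784, minus strand), the gene with the largest log2 fold change. Capitals mark any of the 3 motifs.
HIST1H2BC to HIST1H2AC: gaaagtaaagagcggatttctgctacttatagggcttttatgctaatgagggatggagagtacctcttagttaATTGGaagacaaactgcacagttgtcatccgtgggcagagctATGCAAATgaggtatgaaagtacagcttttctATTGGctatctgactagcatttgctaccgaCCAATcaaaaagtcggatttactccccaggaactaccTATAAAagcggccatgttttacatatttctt
HIST1H4H: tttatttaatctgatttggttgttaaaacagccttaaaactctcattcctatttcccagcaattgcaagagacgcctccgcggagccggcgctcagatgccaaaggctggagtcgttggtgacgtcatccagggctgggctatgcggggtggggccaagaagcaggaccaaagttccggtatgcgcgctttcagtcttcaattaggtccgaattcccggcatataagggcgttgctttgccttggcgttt
The shared stretch holds 1 TATAAA, 3 CCAAT and 1 octamer, and none of these letters is in the HIST1H4H stretch. Only exact letters were searched, so similar ones, such as TATAAG in the HIST1H4H stretch, are not counted. Median log2 fold changes with and without a motif were 0.99 and 0.96 for the octamer, 0.91 and 1.05 for TATAAA, and 0.96 and 1.09 for CCAAT. The ratios of summed FPKM with and without it were 1.93 and 1.88 for the octamer, 1.83 and 2.01 for TATAAA, and 1.79 and 3.37 for CCAAT. Without HIST1H3D the octamer set had a median of 0.98 and a ratio of 1.90, and the octamer was in 41.7% of 60 promoters. The genes without CCAAT are H4 genes, which had the largest ratio of the families. No test between these sets was made.

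Summed FPKM was higher in the OV-BRCA1 group for all 4 kinds of gene model. Models with a coding region only have no annotated 3′ end. The 71 genes have 100 transcripts in the table, and 13 genes have more than 1. The 36 transcripts annotated as a coding region only summed to 2429, 2337 and 2279 FPKM in the OV-BRCA1 samples and 1457, 1428 and 1445 in the NC samples, a ratio of 1.63. The 11 transcripts that end within 60 bases of the stem-loop had 807, 773 and 751 FPKM against 383, 371 and 373, a ratio of 2.07. Both sets were higher in all 3 OV-BRCA1 samples than in any NC sample. Most of the coding-only sum was HIST1H2BK (mean 1205 against 730 FPKM) and HIST1H1C (932 against 612). Most of the sum near the stem-loop was HIST2H2AA3 (286 against 154.5) and HIST2H2AA4 (278 against 150). The ratios of these sums thus describe few genes. The 33 transcripts that run further past the stem-loop had 1046, 1060.0 and 1049.8 FPKM against 406, 407 and 406, a ratio of 2.59. The 13 transcripts with a 3′ UTR in which the stem-loop letters were not found had 483 ± 19.6 FPKM against 234 ± 2.42, a ratio of 2.06. A poly(A) signal, AATAAA or ATTAAA, stood in the last 50 bases of 20 of the 33 longer transcripts, of 4 of the 11 that end near the stem-loop and of 6 of the 13 without it. The longer transcripts held 22.5% of the summed histone FPKM in the OV-BRCA1 group against 16.5% in the NC group.

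**Figure D5:**
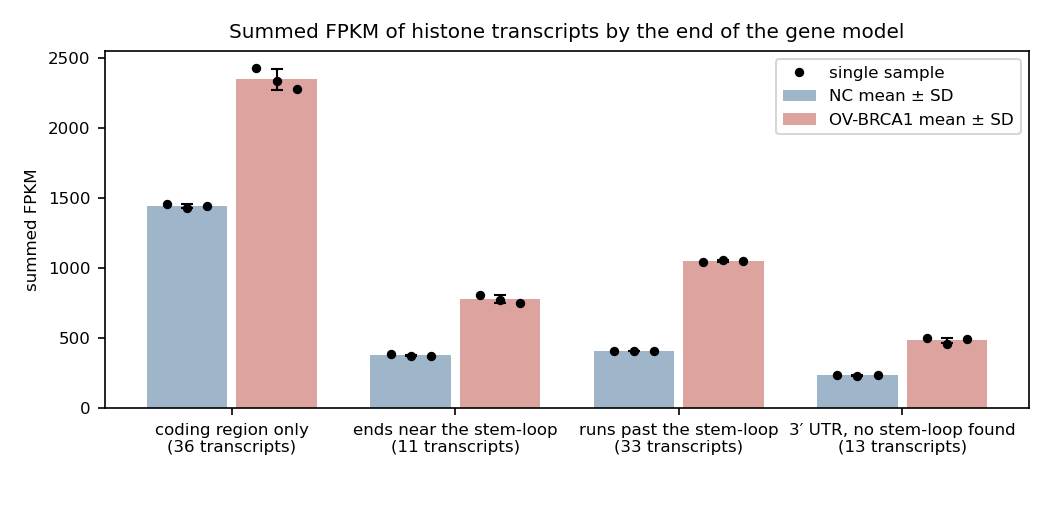
Summed FPKM of clustered histone transcripts by the kind of 3′ end of their gene model. Bars are group means with SD (n = 3), black points are single samples, and the y axis starts at 0. The OV-BRCA1 samples lie above the NC samples in all 4 kinds, by a ratio of 1.63 for models with a coding region only and 2.59 for models that run past the stem-loop. The coding-only sum is mostly HIST1H2BK and HIST1H1C.

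How the authors' quantification divided fragments among overlapping models is not known, so the split within a gene is less certain than its sum. In HIST1H4H, the model that ends at the stem-loop had 25.6 ± 0.569 FPKM in the NC samples and 121 ± 2.81 in the OV-BRCA1 samples, and the spliced model HIST1H4H-203 had 12.3 ± 1.32 and 57.6 ± 7.05, ratios of 4.71 and 4.67. HIST1H4H-201 and HIST1H4H-203 held 52.8% and 25.2% of the gene in the OV-BRCA1 group and 54.3% and 26.1% in the NC group. In HIST1H2AC and HIST4H4 the shares differed more. HIST1H2AC-202 held 14.6% of its gene in the OV-BRCA1 samples and 5.57% in the NC samples (a ratio of 7.14 between its mean FPKM), and the most abundant model of HIST4H4 held 29.2% and 38.2%. No share was tested. For HIST1H2BC and HIST1H2BD, at least 94.4% of the FPKM lay in a spliced model without the stem-loop letters. HIST2H4A and HIST2H4B were carried almost wholly by spliced models that run past the stem-loop.

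The values that moved with this result include those of other RNAs without a poly(A) tail. Of 19 such RNAs, 9 were tested and 7 rose, all 7 as upregulated DEGs, with a median log2 fold change of 3.02, where 16.4% of all genes tested rose and 2.89% were upregulated DEGs. RNU5A-1 reached the filter through the OV-BRCA1 samples alone, and 5 more of the 9 with only 1 or 2 NC samples. The 3 that did not need them, RN7SK, RN7SL1 and RN7SL2, all rose. The summed FPKM of the 19 RNAs was 386 to 493 in the OV-BRCA1 samples and 26.1 to 43.3 in the NC samples, and TERC, SCARNA2 and VTRNA1-1 were at 0 in all samples. RN7SK, the RNA of the 7SK particle, had 27.8 ± 3.70 FPKM against 2.63 ± 1.09 (SD, n = 3). RN7SL2, an RNA of the signal recognition particle, had a log2 fold change of 4.72 and RN7SL1 of 3.14, RMRP and RPPH1, which belong to RNases, of 4.40 and 3.15, and the spliceosomal RNU1-1 and RNU5A-1 of 1.35 each. The part that the capture of RNA without a poly(A) tail, or the share of mitochondrial transcripts, has in the histone result was not tested. With each sample scaled to its nuclear protein-coding genes, 48 histone genes rose and their median was 0.91.

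The genes of the machinery that makes and cuts histone mRNA were listed beside the histone genes, and their counts can be read against the 16.4% of all genes tested that rose and the 18.9% that fell. Of 36 tested genes for histone mRNA transcription and 3′ processing, 2 rose and 5 fell, with a median log2 fold change of -0.04. The 2 that rose were POU2F1, which binds the octamer (log2 fold change 0.36, adjusted p = 0.0446 from limma), and CCNE2, a cyclin of the G1 to S transition (0.27, 0.0294). The smallest adjusted p-values were those of SRRT (log2 fold change -0.41, adjusted p = 0.0103 from limma), HINFP, a transcription factor of H4 genes (-0.46, 0.0107), and CSTF3, a cleavage factor subunit (-0.22, 0.0217). NPAT, the coactivator of histone genes, and SLBP, which binds the stem-loop, were looked up for their roles after the values had been seen. Neither passed, with log2 fold changes of 0.01 and 0.32 (limma adjusted p = 0.952 and 0.116). NPAT had 6.11 against 6.08 FPKM. SLBP had 46.3, 42.4 and 61.9 FPKM in the OV-BRCA1 samples and 39.0, 40.8 and 38.6 in the NC samples, without overlap (means 50.2 and 39.5). Of 30 tested S phase genes, 5 rose and 7 fell, with a median of 0.01, so both shares were near those of all genes. None of these lists was tested against the histone genes. DTL rose by 0.69 and CDC6, which loads the replicative helicase, by 0.55, whereas PCNA, the sliding clamp, fell by 0.52. Of 11 tested genes listed as polyadenylated histone variants, a label not checked here for each gene, 2 rose and 5 fell, with a median of -0.40. H1F0, the replacement linker histone H1.0, rose from 159 ± 4.59 to 552 ± 9.12 FPKM (log2 fold change 1.79), whereas H2AFV and CENPA had log2 fold changes of -0.93 and -0.59.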

How the data were processed

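The authors deposited FPKM values per transcript, made from reads cleaned of adapter and poor-quality sequence. The submitters' processing notes name FastQC, HISAT2 and hg38. The quantification tool, its annotation and its use of strand are not given in the sources used here. FPKM was summed per gene (199167 transcripts, 58174 genes). Gene symbols were those of GENCODE release 29. It contained 198868 of the transcripts, 98.7% of them at the same GRCh38 position. The groups were taken from the labels.

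Genes with at least 0.5 FPKM in at least 3 samples entered limma's moderated test with trend on log2(FPKM + 1) (16321 genes), with Benjamini-Hochberg adjustment. The study's test on counts could not be run on FPKM. The members and all gene lists were chosen with earlier results of these data known. Named were the upregulated DEGs, the 3 most abundant tested genes of each family, any member that fell, the untested members, and list genes past the test with an absolute log2 fold change above 0.5, or otherwise the 3 with the smallest adjusted p-value. Members named beyond that rule, among them those that did not pass, were chosen after their values were seen.

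Depth was estimated from the step between low FPKM values of 14216 single-transcript genes (600 to 5000 bases). Only 31.2% to 37.2% of the low values lay within 0.1 of a whole fragment, so whole reads were not recovered. These estimates cover counting error only. Shared sequence was measured in stretches of 100 bases, and 11 members shared at least 50% of them with another gene. The motif, stem-loop and promoter sequences came from GENCODE and RefSeq. The tests were tried on simulated data. One marker gene is not reported here. The software was limma 3.58.1 under R 4.3.3, and pandas 2.3.3, Biopython 1.88, numpy 2.4.6 and matplotlib 3.10.9 under Python 3.11.15.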

Additional observations from a re-analysis of the deposited data

How the results depend on the processing

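In all alternatives run, between 18 and 48 members rose and the median log2 fold change stayed between 0.75 and 1.21. A pseudocount of 0.1 gave 34 upregulated DEGs and a median of 1.21. Without a filter on low values the median was 0.85 and 1 member fell, HIST1H1A, listed at 0 in the OV-BRCA1 samples and at about 1 estimated fragment in the NC samples. At least 2 FPKM in at least 3 samples gave a median of 0.98. With only single-exon transcripts of at most 1000 bases, 29 of 37 members rose, 11 as upregulated DEGs, with a median of 0.88. Among alternatives chosen after seeing the data, transcripts that run past the stem-loop gave 20 of 22 rises, 9 upregulated DEGs and a median of 0.99, and transcripts without an annotated 3′ UTR gave 18 of 23, 7 and 0.75. Fewer members have such transcripts, which lowers the counts, and the cause of the other differences was not tested. Leaving out 1 sample in turn gave 43 to 46 rises, 19 to 25 upregulated DEGs and medians of 0.91 to 0.96. Same-numbered samples did not deviate together (correlations -0.024, 0.025 and 0.014), 3 of 6 samples correlated best with their own number, and with the replicate block 47 members rose. Among values of single named members under an alternative, 448 kept direction and call. The 8 exceptions were HIST2H2BF in 7 alternatives and HIST4H4 with single-exon transcripts only (adjusted p = 0.0946 from limma), and the cause was not tested. Estimated depth limits members with few fragments, whose FPKM has a wide counting error.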

Other observations

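Histone genes of other kinds were also measured. Of 19 genes with a clustered histone symbol that are not protein-coding, 8 were tested, 7 rose and 3 were upregulated DEGs, with a median log2 fold change of 0.82, where 16.4% of all genes tested rose. HIST2H2BB reached the filter through the OV-BRCA1 samples alone, and HIST1H2BPS2 and HIST1H2APS4 with only 1 or 2 NC samples. Without these 3 genes, 5 of 5 rose and 2 were upregulated DEGs. The summed FPKM of the 19 genes was 74.7 to 79.1 in the OV-BRCA1 samples and 38.3 to 42.2 in the NC samples. HIST2H2BD had 36.5, 38.4 and 33.0 FPKM in the OV-BRCA1 samples and 16.3, 19.0 and 16.9 in the NC samples, a log2 fold change of 1.01. HIST1H2APS4 and HIST1H1PS1 had log2 fold changes of 1.14 and 1.27, HIST1H2APS3 of 0.85, HIST1H4PS1 of 0.79 and HIST2H2BB of 0.74. These sequences resemble the coding genes, and whether reads were divided between them was not tested.

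Histone chaperones carry histones to DNA. Of 16 tested, 1 rose and 3 fell, with a median log2 fold change of -0.07, where 16.4% of all genes tested rose and 18.9% fell. ATRX, a chromatin remodeller that works with DAXX, was lower, with 10.3, 12.1 and 10.7 FPKM in the OV-BRCA1 samples and 14.6, 17.1 and 16.8 in the NC samples, without overlap (log2 fold change -0.51, adjusted p = 0.00729 from limma).

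HIST1H2BE, which did not pass the test, had 2 models with different values. The model that ends at the stem-loop had 0.135 ± 0.0501 FPKM in the OV-BRCA1 group against 0.974 ± 0.752 in the NC group, and the spliced model had 1.09 ± 0.191 and 0.357 ± 0.0208. For the model that ends at the stem-loop the groups overlapped, with 0.115, 0.0971 and 0.191 FPKM in the OV-BRCA1 samples and 0.111, 1.33 and 1.49 in the NC samples, so its lower mean rests on 2 NC samples. These levels are low, and the split between the models was not tested.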
